A study of Mus musculus with 15 samples.

Results

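Early innate lymphoid progenitors (EILP) were set against all-lymphoid progenitors (ALP), both sorted from mouse bone marrow and profiled by bulk RNA sequencing. The comparison took 6 of the 15 libraries of the series: 3 of EILP_WT and 3 of ALP_WT, chosen by their labels alone, with every gene of the table. EILP_WT cells carried Tcf7EGFPnull/+, a green fluorescent reporter allele that is also a null allele of Tcf7 beside 1 other copy, and were sorted for Lin- Kit+ 2B4+ a4b7+ Tcf7+ Thy1-. ALP_WT cells carried Tcf7EGFP/+, a reporter allele that the label does not name as null, and were sorted for Lin- Kit+ 2B4+ a4b7- Flt3high IL-7Ra+. All mice were on the C57BL/6 background. The allele and the cell stage therefore differ together between the groups and cannot be told apart. No age, sex or number of animals is given in the labels. They do not say that the libraries of a group came from separate animals, so the p-values measure only a spread between libraries, which may be technical. That spread and the batch term were estimated over all 15 libraries of the series, those outside this comparison included.

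ALP are bone marrow precursors that can still form B cells, T cells, innate lymphoid cells (ILC) and some dendritic cells. EILP are the earliest cells in this path that have switched on Tcf7, which encodes the transcription factor TCF-1, and they give rise to ILC and natural killer (NK) lineages. TCF-1, Gata3, Nfil3, Tox, Id2 and PLZF, the product of Zbtb16, are factors known to act in turn at these steps, while the B cell path depends on E proteins, which Id2 holds in check.

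Values are the authors' deposited log2 values, on the scale of counts per 1e6, so they are not per gene length and levels were compared between groups and not between genes. Means are given ± SD over the 3 libraries of a group. Each library has a floor, its lowest value, between -4.83 and -4.41 in these 6, at which many genes lie. Between 1470 and 2575 genes lay there in EILP_WT libraries, and between 747 and 1874 in ALP_WT libraries. EILP_WT replicate 3 held the 2575 and stood apart. Its Spearman correlation over genes was 0.856 with EILP_WT replicate 1 and 0.871 with replicate 2, while replicates 1 and 2 correlated at 0.909 with each other and at 0.904 and 0.9 with ALP_WT replicate 3. Counts of changed genes are therefore also given without it. The labels give 2 batches: batch 1 held EILP_WT replicates 1 and 2 and ALP_WT replicate 1, and batch 2 held the other 3. In bulk samples, fewer cells of a type and less RNA per cell cannot be told apart.

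Of 12572 tested genes, 404 changed in EILP_WT against ALP_WT (3.21%), at a limma adjusted p under 0.05 over all tested genes. Of these, 215 were higher (1.71%) and 189 were lower (1.5%). The counts in the gene lists below are to be read beside these shares, and no list was tested against them. The median difference over all tested genes was -0.01 on the log2 scale, and 49.5% of genes were positive. A further measure, which uses no model, is whether the groups overlap: in 19.2% of tested genes every EILP_WT library lay on one side of every ALP_WT library, 9.52% with EILP_WT higher and 9.7% with EILP_WT lower. Among the changed genes, 33 of the higher ones lay at the floor in all 3 ALP_WT libraries, and 60 of the lower ones lay there in all 3 EILP_WT libraries. For these no fold is given. The count was 177, with 100 higher and 77 lower, without EILP_WT replicate 3. With each of the 6 libraries left out in turn, 120 of the 404 genes passed every time, 76 higher and 44 lower. In the text below a call is said to be kept where its gene is among these 120. The kept genes Rag1, Robo4, Epha2 and Ighv1-77 lay at the floor in every library of the series outside ALP_WT. Only ALP_WT brought them into the test, and libraries at the floor add almost no spread to it. Likewise, the kept gene Fgf11 lay below 0 in every library outside EILP_WT, so only EILP_WT brought it in. In a fit of the EILP_WT and ALP_WT libraries alone, 60 genes passed, among them 44 of the 120. Some kept genes named below did not pass in that fit, with limma adjusted p between 0.0657 and 0.138. They were Chad, Actr3, Ighv1-77, Polm, Epha2, Fgf11, Slc18a2, Robo4, Rxrg, Perp, Ccl5, Rag1, Hnf4a, Il12rb2, Ccr9, Pik3cd, Cd93, Jak1, Runx2, Cxcr5, Fgf15 and Hp. The T cell receptor genes Trbc1, Trbj1-1, Tcrg-C4 and Tcrg-C1 are not described below. All were higher in EILP_WT and kept, with limma adjusted p between 9.53e-05 and 0.00774 over the 15 libraries. In the fit of the EILP_WT and ALP_WT libraries alone they did not pass either, with limma adjusted p between 0.0549 and 0.0734. All 404 genes had the same sign within batch 1 and within batch 2, but the calls were made from these same libraries, so this is no separate support. Batch 1 had 1 ALP_WT library and batch 2 had 1 EILP_WT library. Neither batch alone gives a spread for both groups, and no count is read from it.

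**Figure D1:**
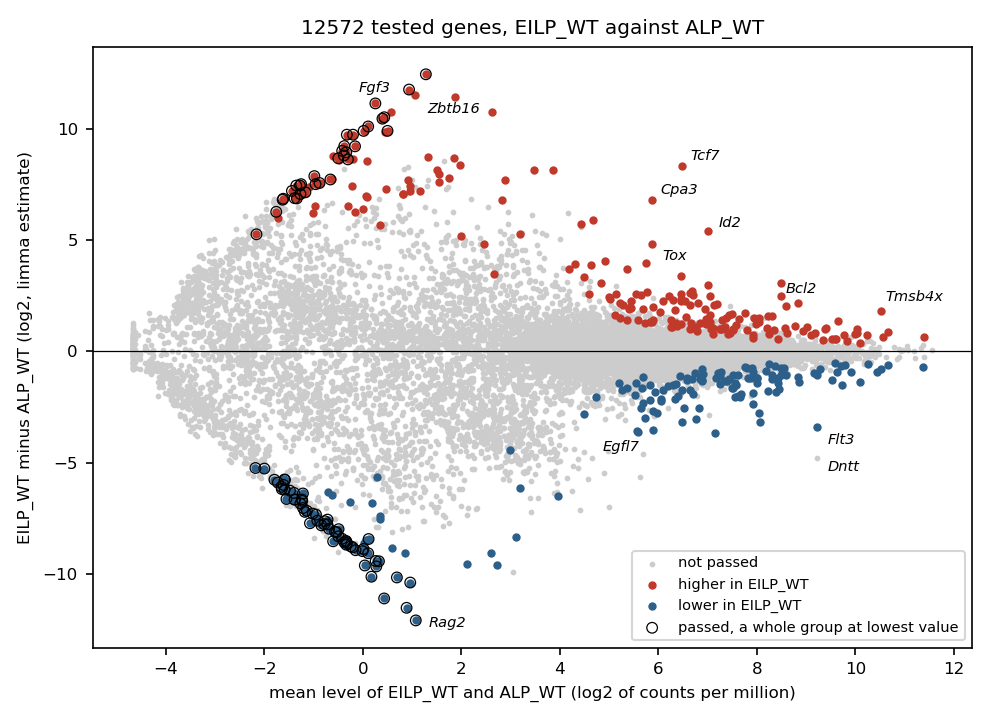
Difference in log2 units between EILP_WT and ALP_WT (limma estimate, vertical axis) against the mean level of both groups in log2 counts per 1e6 (horizontal axis) for 12572 tested genes, with the 215 higher genes in red, the 189 lower genes in blue and a ring around called genes with a whole group at the floor. Tcf7, Cpa3 and Id2 stand out among the higher genes with measured levels in both groups, the ringed genes line both edges at low mean level, and Dntt lies far below 0 without passing.

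Of 35 tested ILC and lymphoid transcription factors, 10 rose, 0 fell and 25 did not pass, and the median was 1.39, which becomes 1.07 if 6 genes whose whole group lay at the floor are left out. Tcf7 is among the 10, and the EILP_WT gate selects cells by it, so its difference was fixed by the sort and is a description. Of the other 34 factors, 9 rose. Tcf7 (chromosome 11, 52252371 to 52283014, minus strand) was 9.89, 10.81 and 11.14 in EILP_WT libraries and 2.54, 2.64 and 1.91 in ALP_WT libraries. Its groups lay far apart, with a log2 difference of 8.34. Zbtb16, whose product PLZF marks ILC precursors, was 6.30, 6.73 and 7.24 in EILP_WT. In ALP_WT it was -4.60 and -4.83, both floors, and -4.53 (limma adjusted p = 2.84e-07). Tox, an HMG-box factor needed for ILC and CD4 T cell development, was 7.86, 8.15 and 8.66 in EILP_WT against 3.34, 3.71 and 3.47 in ALP_WT, a 28.6-fold difference (log2 difference 4.84, SE 0.24, limma adjusted p = 5.3e-07). Its relative Tox2 was 6.22, 7.33 and 8.37 in EILP_WT and listed at the floor in every ALP_WT library (limma adjusted p = 0.00369). Zbtb16, Tox and Tox2 kept their call. In each of them every EILP_WT library lay above every ALP_WT library, which was a condition for naming them by rule.

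Id2, whose product blocks E proteins, was 9.35, 9.64 and 10.08 in EILP_WT and 3.76, 5.16 and 4.11 in ALP_WT. This is a 41.9-fold difference (log2 difference 5.39, SE 0.36, limma adjusted p = 9.57e-06), with 5.74 within batch 1 and 5.44 within batch 2. Of its E protein partners, Tcf4 fell by 1.64 (SE 0.32, limma adjusted p = 0.0184, or up to 0.118 without ALP_WT replicate 1 or 2 or EILP_WT replicate 2 or 3), while Tcf3, which encodes E2A, was 8.37 ± 0.05 in EILP_WT and 8.27 ± 0.16 in ALP_WT (SD, n = 3 each, limma adjusted p = 0.723). Tcf12 did not pass either, at 6.44 ± 0.80 in EILP_WT and 6.52 ± 0.31 in ALP_WT. Gata3, a zinc finger factor of T cells and group 2 ILC, was 6.30, 7.88 and 8.05 in EILP_WT and -0.71, 3.58 and 2.90 in ALP_WT (log2 difference 5.92, SE 0.70, limma adjusted p = 0.00093). The ALP_WT libraries of Gata3 spread widely, yet the difference was 7.81 within batch 1 and 4.81 within batch 2. Nfil3, a basic leucine zipper factor needed early in the ILC path, was 9.44, 8.21 and 7.97 in EILP_WT and 5.28, 4.85 and 6.25 in ALP_WT (log2 difference 2.98, SE 0.53, limma adjusted p = 0.0104, or 0.0727 without ALP_WT replicate 1). Runx3 rose by 2.15 (SE 0.20, limma adjusted p = 0.000177), with 7.88 ± 0.15 in EILP_WT and 5.72 ± 0.17 in ALP_WT. Id2, Gata3 and Runx3 kept their call.

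Bcl11b and Lef1 completed the 10 factors, and both varied within EILP_WT. Bcl11b, a factor of T cell and group 2 ILC commitment, was 0.20, 3.44 and 3.78 in EILP_WT, with ALP_WT libraries at or near the floor, between -4.83 and -4.58 (limma adjusted p = 0.0134, or 0.084 without EILP_WT replicate 3). Lef1, the closest relative of Tcf7, was -0.72, 3.77 and 6.40 in EILP_WT and between -4.83 and -3.86 in ALP_WT (limma adjusted p = 0.0296), a call lost without any of the 6 libraries but EILP_WT replicate 1 (adjusted p up to 0.188). EILP_WT replicate 1 was the lowest of its group in both genes and in Tcf7 and Gata3. Rora, the gene of an orphan receptor of group 2 ILC, was 5.85, 7.59 and 7.68 in EILP_WT and 2.49, 3.23 and -1.83 in ALP_WT, groups that do not overlap, but it did not pass (limma adjusted p = 0.115). Tbx21, which encodes T-bet, was listed at the floor in all ALP_WT libraries and in EILP_WT replicates 1 and 2, and was 5.62 in EILP_WT replicate 3. Without EILP_WT replicate 3, 8 factors of this list passed, or 7 beside Tcf7.

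The promoter windows of Fgf3, Id2 and Flt3 are shown, with the letters searched for in capitals, since these genes stand for the results: Fgf3 is a growth factor gene at the floor in every ALP_WT library, Id2 the inhibitor of E proteins, and Flt3 the receptor that the ALP gate selects for. The windows are 300 bases each, from RefSeq on GRCm38.p6, mostly before and partly after the start that RefSeq annotates, and are read 5′ to 3′ on the gene's strand. The searches, on both strands, were for CTTTGA, the core of the TCF/LEF site, AGATAA, a site of Gata3 and its relatives, and CAGCTG, an E box that reads the same on both strands. Positions are counted from that start. GENCODE M21, from which the gene spans in this text come, has the same start for Flt3 but starts Fgf3 529 bases and Id2 1048 bases further upstream, so by GENCODE these windows lie inside both genes. Fgf3 (chr7:144838362-144838661, plus strand) holds CTTTGA on the opposite strand, printed as TCAAAG, 197 bases before the RefSeq start, and AGATAA on the opposite strand, printed as TTATCT, 115 bases before it. Id2 (chr12:25096043-25096342, minus strand) holds CAGCTG 196 bases before the RefSeq start. Flt3 (chr5:147400440-147400739, minus strand) holds CTTTGA on the opposite strand, printed as TCAAAG, 179 bases before the RefSeq start.
Fgf3: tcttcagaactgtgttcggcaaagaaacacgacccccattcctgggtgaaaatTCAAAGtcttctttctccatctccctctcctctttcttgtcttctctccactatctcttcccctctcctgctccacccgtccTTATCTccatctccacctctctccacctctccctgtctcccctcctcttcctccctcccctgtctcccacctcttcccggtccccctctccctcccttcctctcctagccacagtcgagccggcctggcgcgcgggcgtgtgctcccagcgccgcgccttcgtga
Id2: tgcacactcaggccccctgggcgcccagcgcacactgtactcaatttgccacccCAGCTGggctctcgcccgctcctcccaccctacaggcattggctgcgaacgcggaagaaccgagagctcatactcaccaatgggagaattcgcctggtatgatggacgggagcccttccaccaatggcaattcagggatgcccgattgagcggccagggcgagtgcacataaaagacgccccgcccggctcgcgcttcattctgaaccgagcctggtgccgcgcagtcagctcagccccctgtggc
Flt3: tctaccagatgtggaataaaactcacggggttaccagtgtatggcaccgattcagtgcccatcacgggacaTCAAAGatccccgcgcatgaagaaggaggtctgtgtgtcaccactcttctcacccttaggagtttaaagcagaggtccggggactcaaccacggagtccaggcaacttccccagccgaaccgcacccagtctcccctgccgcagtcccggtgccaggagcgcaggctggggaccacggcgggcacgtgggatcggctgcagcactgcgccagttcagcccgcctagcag
CTTTGA was in 17.8% of the 214 windows of the higher genes and 18.3% of the 186 windows of the lower genes, against 12% of the windows of tested genes and 16% of all 32851 windows. AGATAA was in 8.4% of the windows of the higher genes and 5.9% of those of the lower genes, against 6.8% for tested genes and 11.2% for all windows. CAGCTG was in 20.1% of the windows of the higher genes and 18.3% of those of the lower genes, against 14.8% for tested genes and 16.3% for all windows. Of the changed genes, 147 of 215 higher and 131 of 189 lower had a window in the table. A match is a description of letters and not of a bound site.

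**Figure D2:**
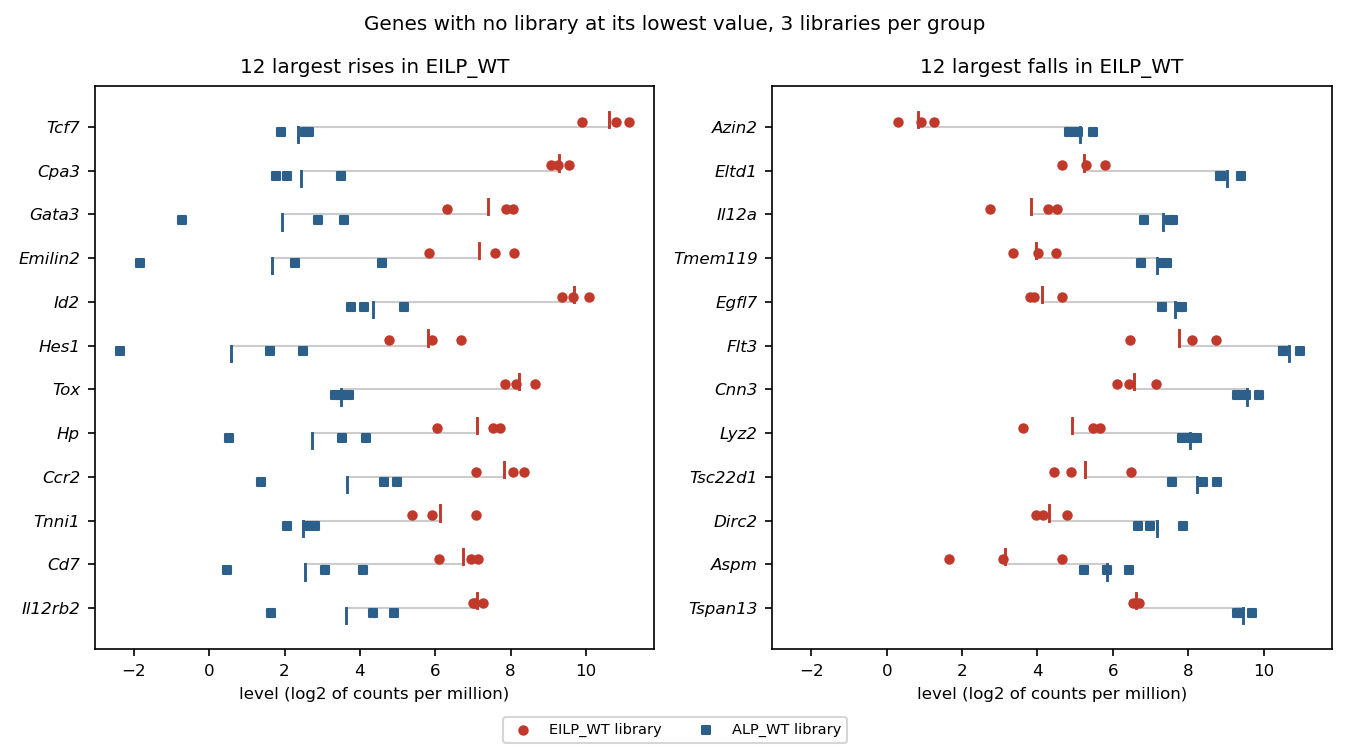
Level in log2 counts per 1e6 (horizontal axis) of the 12 largest rises (left) and 12 largest falls (right) among changed genes with no library at its floor, with red circles for EILP_WT libraries and blue squares for ALP_WT libraries, 3 each, and short vertical lines at the group means. Only genes whose groups do not overlap and whose higher group had a mean above 4.75 were picked. Predicted genes and immunoglobulin and T cell receptor segments were left out. The lack of overlap is a condition and not a result. Tcf7 and Cpa3 have the widest gaps between the groups on the left, and Gata3, Emilin2 and Hes1 have an ALP_WT library far below the other ALP_WT libraries.

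The genes of the sort gate served as a check of the labels. Those on which the gates differ, Tcf7 among them, were selected on by the sort, so their differences are given with no test. Itgb7 and Itga4, the chains of the a4b7 integrin that the gates split on, were 10.08 ± 0.34 and 9.63 ± 0.24 in EILP_WT and 6.89 ± 0.29 and 7.55 ± 0.04 in ALP_WT (SD, n = 3 each). Flt3, the receptor of a cytokine for early lymphoid and dendritic precursors, was 8.75, 8.10 and 6.46 in EILP_WT and 10.98, 10.53 and 10.53 in ALP_WT, with the widest gap in EILP_WT replicate 3. Kit and Cd244, which encodes 2B4, were used in both gates and did not pass, at 8.87 ± 0.50 and 6.90 ± 0.19 in EILP_WT and 8.48 ± 0.67 and 6.40 ± 0.37 in ALP_WT. Il7r, which the ALP gate selects for, was -4.60, 6.34 and 7.58 in EILP_WT and 7.91, 8.95 and 7.89 in ALP_WT. EILP_WT replicate 1 held it at the floor. Thy1 transcripts, from the gene whose surface protein was gated out of EILP_WT, were 2.46, 0.69 and 1.62 in EILP_WT and between -4.83 and -4.41 in ALP_WT. They thus lay higher in the group that was gated against the protein.

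Markers of other cell types were summed per library on the linear scale, in counts per 1e6. The 6 NK cell markers summed to 10.3, 38.9 and 323.1 in EILP_WT and 4.1, 45.6 and 8.7 in ALP_WT, so EILP_WT replicate 3 stood apart here too. The 7 mast cell and basophil markers summed to between 580.7 and 981 in EILP_WT and between 15.2 and 51.6 in ALP_WT, and Cpa3 made up most of each EILP_WT sum. Without Cpa3 the other 6 summed to 41.6, 232.9 and 24.9 in EILP_WT and 47.4, 11.8 and 31.9 in ALP_WT, which overlap, with 4, 1 and 5 of the 6 at the floor in EILP_WT and 4, 2 and 0 in ALP_WT. The median difference of the 7 was 0.03. The 13 myeloid markers summed to between 645.9 and 4291.3 in EILP_WT with the highest in replicate 1, and between 1308.9 and 2343.6 in ALP_WT. The 8 plasmacytoid dendritic cell markers summed to between 854.6 and 1948.2 in EILP_WT and between 1429.1 and 2253.3 in ALP_WT. The 14 erythroid and megakaryocyte markers summed to between 254.2 and 686.1 in EILP_WT and between 144.2 and 483.3 in ALP_WT. The 6 T cell markers and the 3 B cell and plasma cell markers overlapped between the groups. The part of these markers in the results below was not tested.

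**Figure D3:**
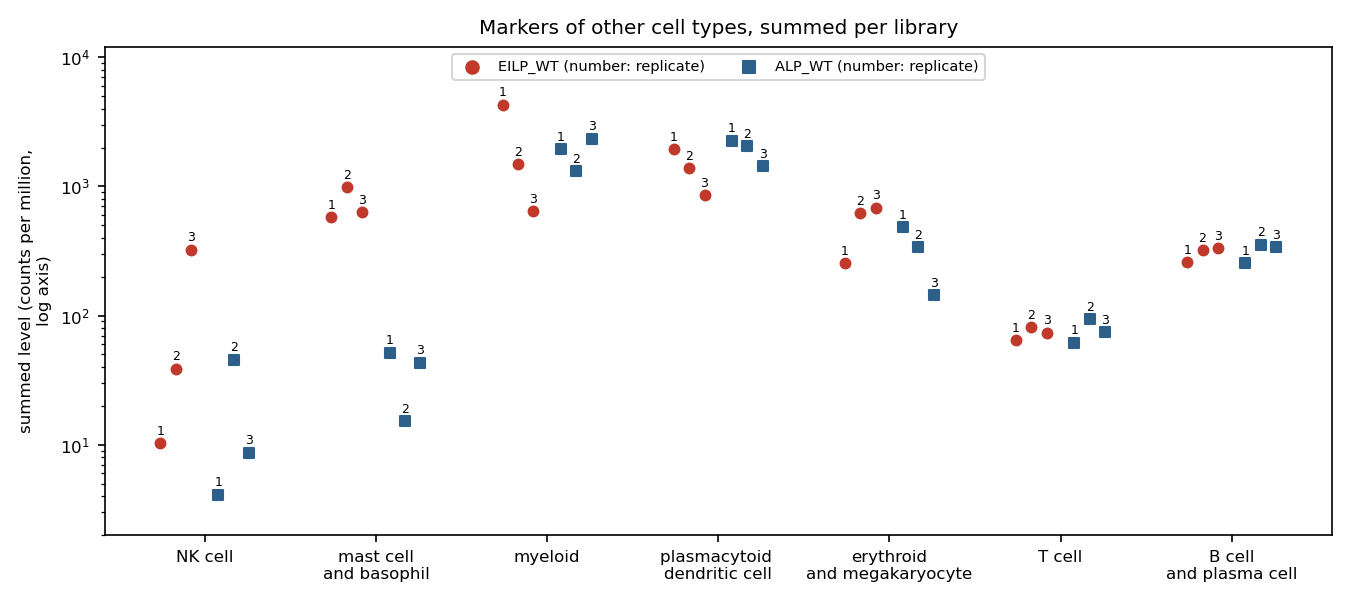
Summed level of 7 marker lists in counts per 1e6 (vertical axis, log scale) for each EILP_WT library (red circles) and each ALP_WT library (blue squares), with the replicate number above each point. Mast cell and basophil markers lie at 580.7 to 981 in EILP_WT and 15.2 to 51.6 in ALP_WT, a gap that rests on Cpa3, since the sums without it overlap, and NK cell markers stand high in EILP_WT replicate 3 at 323.1.

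Cpa3 had the second largest rise, after Tcf7, among the genes named by rule with no library at its floor. It encodes carboxypeptidase A3, a protease of mast cell granules. It was 9.07, 9.55 and 9.25 in EILP_WT and 2.06, 1.76 and 3.49 in ALP_WT, a 112-fold difference (log2 difference 6.81, SE 0.39, limma adjusted p = 2.03e-06), and kept its call. The difference was 7.25 within batch 1 and 6.63 within batch 2. The other 6 mast cell and basophil markers did not pass. Of these, Mcpt8 was 5.19 ± 0.55 in EILP_WT and 3.0 ± 0.73 in ALP_WT (limma adjusted p = 0.802, with no overlap between these groups but a spread shared with another sorted population of the series, ILCP_WT, in which 1 library was at the floor), Hdc was at the floor in all 3 EILP_WT libraries, and the IgE receptor genes Ms4a2 and Fcer1a were at the floor in EILP_WT replicates 1 and 3. Slc18a2, which encodes a vesicular monoamine transporter, was 5.67, 7.23 and 5.54 in EILP_WT and between 1.76 and 2.73 in ALP_WT (log2 difference 3.71, SE 0.50, limma adjusted p = 0.00191). It kept its call and was chosen after its values were seen.

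Genes at or near the floor in ALP_WT included several secreted factors. Fgf3, a fibroblast growth factor gene, was 5.59, 6.79 and 7.49 in EILP_WT and listed at the floor in every ALP_WT library (limma adjusted p = 0.00109). Its neighbour Fgf15 was 3.14, 5.80 and 6.82 in EILP_WT and also at the floor in every ALP_WT library (limma adjusted p = 0.0111). In the GENCODE M21 annotation of GRCm38 Fgf3 spans 144838083 to 144844436 and Fgf15 spans 144896531 to 144900953 of chromosome 7, on the same strand. Fgf11 was 3.22, 4.01 and 4.01 in EILP_WT and at the floor in ALP_WT (limma adjusted p = 0.00191), while Fgf13 went the other way: it was at the floor in every EILP_WT library and 5.96, 4.81 and 3.70 in ALP_WT (limma adjusted p = 0.0194). Fgf11 lay below 0 in every library of the series outside EILP_WT, so only EILP_WT brought it into the test. It was at the floor in every library of the sorted EILP fractions sEILP_WT and cEILP_WT. Libraries at the floor add almost no spread to its test. Fgf3, Fgf15, Fgf11 and Fgf13 were the 4 tested FGF genes, a group formed by symbol after values were seen. The calls of Fgf3, Fgf15 and Fgf11 were kept, and that of Fgf13 was lost without ALP_WT replicate 1 or EILP_WT replicate 3 (adjusted p up to 0.107).

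Rxrg, which encodes a retinoid X receptor, was 4.12, 5.29 and 7.22 in EILP_WT and at the floor throughout ALP_WT (limma adjusted p = 0.00233). Perp, a p53 target gene whose product sits in desmosomes, was 4.68, 5.11 and 4.54 in EILP_WT, again with all ALP_WT libraries at the floor (limma adjusted p = 0.00264). Chad, which encodes the matrix protein chondroadherin, was 4.79, 5.37 and 5.83 in EILP_WT and between -4.83 and -3.86 in ALP_WT (limma adjusted p = 3.42e-05). Rxrg, Perp and Chad kept their call. Megf10, a receptor for engulfment, was 6.34, 5.31 and 5.59 in EILP_WT and at the floor in ALP_WT (limma adjusted p = 0.0118), a call lost without ALP_WT replicate 1 or EILP_WT replicate 3 (adjusted p up to 0.0857). Of 23 retinoid and nuclear receptor genes tested, Rxrg and Rarg were higher and Hnf4a was lower, and the call of Rarg was lost without EILP_WT replicate 3 (adjusted p = 0.0559). Hnf4a, best known as a liver and gut factor, was at the floor in every EILP_WT library and 6.62, 3.64 and 5.20 in ALP_WT (limma adjusted p = 0.00264, kept). It spans 163506808 to 163572910 of chromosome 2, and Tox2, which moved the other way, spans 163203125 to 163324170 on the same strand.

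The other large rises with measured levels in every library were of mixed kinds. Hes1, a repressor induced by Notch, was 4.78, 5.92 and 6.69 in EILP_WT and 2.49, 1.61 and -2.36 in ALP_WT (log2 difference 5.30, SE 1.18, limma adjusted p = 0.0326). Emilin2, a matrix glycoprotein gene, was 8.10, 7.59 and 5.83 in EILP_WT and -1.83, 2.28 and 4.58 in ALP_WT, with a difference of 9.67 within batch 1 and 2.40 within batch 2 (limma adjusted p = 0.0222). Hp, which encodes haptoglobin, was 7.10 ± 0.92 in EILP_WT and 2.74 ± 1.94 in ALP_WT (SD, n = 3 each, limma adjusted p = 0.0111). Hp kept its call. The call of Hes1 was lost without ALP_WT replicate 2 or EILP_WT replicate 2 or 3 (adjusted p up to 0.176), and that of Emilin2 without ALP_WT replicate 2 or EILP_WT replicate 1 or 2 (adjusted p up to 0.0683). Tnni1, a troponin gene, was 6.12 ± 0.86 in EILP_WT and 2.49 ± 0.38 in ALP_WT (limma adjusted p = 0.00973), a call lost without EILP_WT replicate 3 (adjusted p = 0.0744).

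Of 24 tested Notch pathway genes, Hes1 included, 2 were higher and 3 were lower, with a median of 0.02. Rbpj, the DNA-binding partner of Notch, was 7.53 ± 0.42 in EILP_WT and 6.42 ± 0.18 in ALP_WT (limma adjusted p = 0.0225, or up to 0.136 without ALP_WT replicate 2 or 3 or EILP_WT replicate 3). Notch1 was 5.19, 4.81 and 5.55 in EILP_WT and 8.27, 7.74 and 7.59 in ALP_WT (limma adjusted p = 0.0394, lost with any 1 of the 6 libraries omitted, up to 0.207), and Dtx4 fell by 1.73 (SE 0.39, limma adjusted p = 0.0355, lost without any library but EILP_WT replicate 2, up to 0.131). Myc, a growth regulator and Notch target in T cell precursors, was 7.80 ± 0.17 in EILP_WT and 9.04 ± 0.12 in ALP_WT (limma adjusted p = 0.0182, or up to 0.124 without ALP_WT replicate 1 or EILP_WT replicate 3), while its paralog Mycn was 7.96 ± 0.56 in EILP_WT and 5.42 ± 0.37 in ALP_WT (limma adjusted p = 0.000296). Of these genes Mycn kept its call. Without EILP_WT replicate 3, 0 of the 24 Notch pathway genes passed by limma, where 7 had an unadjusted p under 0.05.

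Receptors for cytokines and chemokines moved in both directions. Of 40 tested cytokine and growth factor receptors, 2 were higher and 3 were lower, with a median of -0.34. Over all tested genes 1.71% were higher and 1.5% were lower. Flt3 of the sort gate was among the 3 lower receptors. Il2rb, the beta chain shared by the IL-2 and IL-15 receptors, was 6.82, 8.57 and 9.05 in EILP_WT and 3.26, -4.83 and 0.28 in ALP_WT (limma adjusted p = 0.00841). Il12rb2, a chain of the IL-12 receptor, was even in EILP_WT at 7.01, 7.26 and 7.07 and uneven in ALP_WT at 1.64, 4.33 and 4.91 (log2 difference 3.72, SE 0.56, limma adjusted p = 0.00373). Il17ra was 7.33 ± 0.36 in EILP_WT and 9.12 ± 0.13 in ALP_WT (limma adjusted p = 0.00462), and Il10rb was 4.64 ± 1.03 in EILP_WT and 7.30 ± 0.24 in ALP_WT (limma adjusted p = 0.0104). Il12rb2 and Il17ra kept their call. The calls of Il2rb and Il10rb were lost without EILP_WT replicate 3, with adjusted p of 0.0749 and 0.0538. Of 26 tested chemokine and migration receptors, Ccr2 and Cxcr5 were higher and Ccr9 was lower (11.5% passed, against 3.21% of all tested genes). Ccr2 was 7.09, 8.35 and 8.06 in EILP_WT and 4.64, 1.38 and 4.98 in ALP_WT (limma adjusted p = 0.0142, or 0.103 without EILP_WT replicate 3). Cxcr5 was 3.35, 6.72 and 7.49 in EILP_WT and -4.60, -3.19 and 2.03 in ALP_WT (limma adjusted p = 0.006), and Ccr9 was at the floor in all EILP_WT libraries and 5.78, 2.59 and 3.19 in ALP_WT (limma adjusted p = 0.00449). Cxcr5 and Ccr9 kept their call.

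Among signal carriers behind these receptors, 2 of 25 tested genes passed (8%, against 3.21% of all tested genes), both higher, with a median of 0.46. Jak1, the kinase shared by most lymphoid cytokine receptors, was 9.49, 9.93 and 10.17 in EILP_WT and 9.05, 8.78 and 8.93 in ALP_WT (log2 difference 1.00, SE 0.16, limma adjusted p = 0.00525), and kept its call. Stat5a was 6.89, 6.92 and 7.67 in EILP_WT and 5.87, 6.40 and 6.42 in ALP_WT (limma adjusted p = 0.0342), a call lost without any of the 6 libraries but EILP_WT replicate 1 (adjusted p up to 0.19). Bcl2, the survival gene downstream of IL-7 signalling, was 9.65, 9.80 and 10.27 in EILP_WT and 7.85, 7.73 and 7.74 in ALP_WT. This is a 4.47-fold difference (log2 difference 2.16, SE 0.17, limma adjusted p = 3.42e-05), a kept call, with tight ALP_WT libraries. Of the other 23 tested survival and death genes, Birc3 was lower (limma adjusted p = 0.0494, lost without any library but EILP_WT replicate 3, up to 0.206) and 22 did not pass, among them Mcl1 at 7.78 ± 0.02 in EILP_WT and 7.89 ± 0.30 in ALP_WT. Nfkb1, an NF-kappaB subunit gene chosen after its values were seen, was 9.53, 9.88 and 9.90 in EILP_WT and 7.23, 7.08 and 7.37 in ALP_WT (log2 difference 2.47, SE 0.22, limma adjusted p = 9.53e-05, kept).

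Of 21 tested NK and cytotoxic genes, 6 were higher and 0 were lower. The difference was positive in 19 of them, and the median was 3.26, which becomes 1.91 if 7 genes are left out that lay at the floor in all ALP_WT libraries. Fcer1g and Tyrobp, the signalling adaptors of NK and myeloid receptors, were 8.14 ± 0.38 and 8.65 ± 0.14 in EILP_WT and 6.11 ± 0.16 and 6.87 ± 0.26 in ALP_WT (limma adjusted p = 0.000293 and 0.00191). Ccl5, a chemokine of cytotoxic cells, was 4.03, 4.89 and 7.34 in EILP_WT and -4.60, 0.87 and -4.55 in ALP_WT (limma adjusted p = 0.00264). Those 3 genes kept their call. Nkg7, Ctsw and Il2rb also passed, with adjusted p of 0.0363, 0.0109 and 0.00841, but not without EILP_WT replicate 3, when 3 of the 21 passed. The call of Nkg7 was also lost without ALP_WT replicate 2 or 3 or EILP_WT replicate 2 (adjusted p up to 0.203). The NK marker sum of EILP_WT replicate 3 was 323.1, and its part in these counts was not tested. Of the genes that define NK cells, Ncr1 was 4.44 in EILP_WT replicate 3 and at the floor in the other EILP_WT libraries and in every ALP_WT library, and Eomes was 1.52, 3.45 and 6.48 in EILP_WT with every ALP_WT library at the floor. Neither passed (limma adjusted p = 0.487 and 0.136).

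Of 25 tested T cell receptor signalling genes, 4 were higher and 0 were lower, and the median was 2.08, which becomes 0.92 if 6 genes whose whole group lay at the floor are left out. Txk, a Tec kinase of T and NK cells, was 3.05, 3.09 and 6.90 in EILP_WT and at the floor in every ALP_WT library (limma adjusted p = 0.0093). Cd7, an immunoglobulin-superfamily receptor of T and NK cells, was 6.11, 6.95 and 7.14 in EILP_WT and 4.08, 3.08 and 0.47 in ALP_WT (limma adjusted p = 0.0273), and Trat1, an adaptor gene, passed at 0.0418. Without EILP_WT replicate 3, 0 of the 25 passed by limma, where 7 had an unadjusted p under 0.05. In that fit the adjusted p of Txk was 0.0725. The call of Cd7 was also lost without ALP_WT replicate 3 or EILP_WT replicate 2 (up to 0.178), and that of Trat1 without any library but ALP_WT replicate 2 (up to 0.179). The T cell receptor complex gene Cd3e was -4.60, -0.27 and 4.0 in EILP_WT with every ALP_WT library at the floor and did not pass (limma adjusted p = 0.392).

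**Figure D4:**
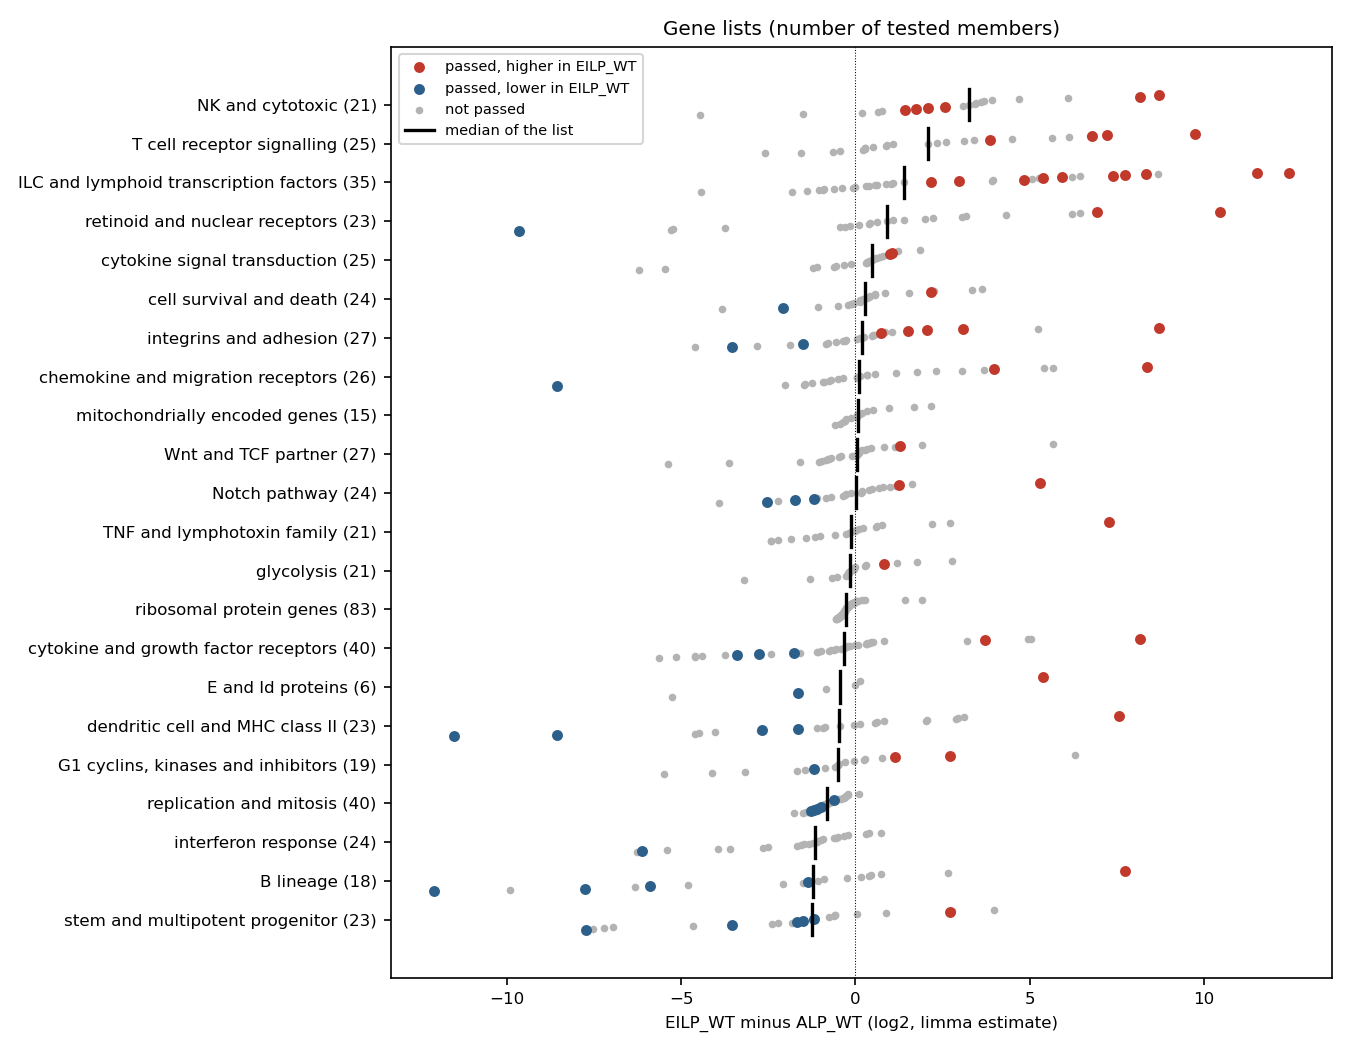
Difference between EILP_WT and ALP_WT in log2 units (limma estimate, horizontal axis) for each tested member of 22 gene lists, with the number tested in brackets, red and blue for members that passed as higher and lower, grey for the rest and a black line at the median. NK and cytotoxic genes have the highest median at 3.26, stem and multipotent progenitor genes the lowest at -1.24, and ribosomal protein genes are packed near their median of -0.28 with none passing.

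Among the falls were surface and secreted genes of early progenitors and endothelium, a group listed after values were seen. Of 12 tested genes of this kind, 5 were lower and 0 were higher. Egfl7, an endothelial secreted factor that hosts a microRNA in an intron, was 3.81, 3.90 and 4.65 in EILP_WT and 7.78, 7.84 and 7.30 in ALP_WT, an 11.6-fold difference (log2 difference -3.54, SE 0.51, limma adjusted p = 0.00264). Eltd1, an adhesion G protein-coupled receptor of endothelium, was 4.66, 5.30 and 5.79 in EILP_WT and 8.87, 9.41 and 8.84 in ALP_WT (log2 difference -3.66, SE 0.37, limma adjusted p = 0.000293). Robo4, a guidance receptor of endothelium and stem cells, was at the floor in every EILP_WT library and 3.35, 2.88 and 3.27 in ALP_WT (limma adjusted p = 0.00191). Cd93 was 7.25, 7.29 and 5.70 in EILP_WT and 8.56, 8.43 and 8.67 in ALP_WT (limma adjusted p = 0.00462). Those 4 calls were kept. Cd34 was 9.84, 9.03 and 8.45 in EILP_WT and 10.49, 10.10 and 10.49 in ALP_WT (limma adjusted p = 0.0134, or 0.0937 without EILP_WT replicate 3). Pecam1 and Eng did not pass, at 8.71 ± 0.18 and 5.07 ± 0.46 in EILP_WT and 8.11 ± 0.47 and 5.57 ± 0.18 in ALP_WT.

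Of 23 tested stem and multipotent progenitor genes, 5 were lower and Mycn was higher, with a median of -1.24. Beside Cd34 and Egfl7 the lower ones were Hoxa10, Mef2c and Cd48. Mef2c, a factor of early lymphoid and myeloid choice, was 7.66 ± 0.67 in EILP_WT and 9.23 ± 0.30 in ALP_WT (limma adjusted p = 0.0418), a call lost without any of the 6 libraries but EILP_WT replicate 1 (adjusted p up to 0.216). Hoxa10, a homeobox gene of early progenitors, was at the floor throughout EILP_WT and 2.93, 0.67 and 3.78 in ALP_WT (limma adjusted p = 0.0481, lost with any 1 of the 6 libraries omitted, up to 0.132). Cd48 was 7.48 ± 0.44 in EILP_WT and 8.51 ± 0.22 in ALP_WT (limma adjusted p = 0.0159, or up to 0.103 without ALP_WT replicate 2 or EILP_WT replicate 3). Without EILP_WT replicate 3, 3 of the 23 passed. Lmo2, a partner of stem cell factors, was 5.34, 4.54 and -4.41 in EILP_WT and 8.22, 8.20 and 8.07 in ALP_WT, where EILP_WT replicate 3 held it at the floor. It did not pass (limma adjusted p = 0.0529).

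Of 18 tested B lineage genes, Rag1, Rag2, Ighm and Mzb1 fell and Lef1 rose, and the median was -1.22, which becomes -0.24 if 7 genes whose whole group lay at the floor are left out. The call of Mzb1 was lost without ALP_WT replicate 1 or EILP_WT replicate 2 or 3 (limma adjusted p up to 0.103). Rag1 and Rag2, the recombinase that cuts antigen receptor genes, were at the floor in all EILP_WT libraries. In ALP_WT, Rag1 was 4.26, 2.88 and 1.98 (limma adjusted p = 0.00264, kept) and Rag2 was 6.98, 6.49 and 6.81 (limma adjusted p = 0.0222, lost with any 1 of the 6 libraries omitted, up to 0.0738). The spread behind these tests is pooled over all 15 libraries, with an SE of 1.11 for Rag1 and 2.49 for Rag2. Rag1 was at the floor in every library outside ALP_WT, while Rag2 varied in other populations of the series (SD 6.32 in ILCP_WT). The kept and the lost call therefore do not rank these genes between EILP_WT and ALP_WT. Ighm, the mu heavy chain gene, was 9.36, 9.65 and 9.31 in EILP_WT and 11.18, 10.60 and 10.43 in ALP_WT (log2 difference -1.37, SE 0.20, limma adjusted p = 0.00324, kept). Of 6 tested heavy chain variable segments, grouped by symbol after values were seen, 5 were lower. Those 5 were at the floor in every library of the series outside ALP_WT, so only ALP_WT brought them into the test. In the fit of the EILP_WT and ALP_WT libraries alone, 0 of the 6 passed by limma, where 6 had an unadjusted p under 0.05. Ighv1-77 was 4.64, 4.41 and 3.89 in ALP_WT (limma adjusted p = 0.00101), and neighbouring segments can share reads. Ebf1 and Blnk, a founding factor and an adaptor of the B lineage, did not pass: Ebf1 was at the floor throughout EILP_WT and 1.61, 4.46 and 0.61 in ALP_WT (limma adjusted p = 0.0762), and Blnk was -4.60, 4.07 and -4.41 in EILP_WT and 7.48, 8.48 and 7.20 in ALP_WT (limma adjusted p = 0.0555).

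Dntt, the gene of terminal deoxynucleotidyl transferase that adds bases at recombination joints, is given as a description. It was 6.42, 6.79 and 6.49 in EILP_WT and 11.87 in each ALP_WT library. That is the highest value of the deposited table and a ceiling that the top gene of every library shares, so Dntt was the top gene of all 3 ALP_WT libraries and a larger level could not show. The ceiling also fixes the spread of the ALP_WT values at 0, so no test of Dntt is read here. The fit over all 15 libraries did not call it (limma adjusted p = 0.19), and its levels do not overlap between the groups. Xrcc6, which encodes the Ku70 end-joining protein, was 7.25, 7.06 and 6.67 in EILP_WT and 8.96, 8.78 and 8.75 in ALP_WT (log2 difference -1.89, SE 0.20, limma adjusted p = 0.000387). Its partner Xrcc5 was 5.62 ± 0.32 in EILP_WT and 4.26 ± 1.09 in ALP_WT and did not pass (limma adjusted p = 0.118). Polm, a polymerase of end joining, went the other way, at 3.02, 2.49 and 6.20 in EILP_WT and the floor in every ALP_WT library (limma adjusted p = 0.00162). Xrcc6 and Polm kept their call.

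Plasmacytoid dendritic cell genes were lower in 4 of 8 tested markers, and the median was -2.2, which becomes -1.29 if 2 genes are left out that lay at the floor throughout EILP_WT. Siglech, a surface lectin of these cells, was at the floor in every EILP_WT library and 5.39, 7.59 and 6.17 in ALP_WT (limma adjusted p = 0.0347), a call lost with any 1 of the 6 libraries omitted (adjusted p up to 0.117). Runx2 was 4.77 ± 1.27 in EILP_WT and 7.01 ± 0.57 in ALP_WT (limma adjusted p = 0.00547), and with Ccr9 it kept its call. Tcf4, the E protein that these cells depend on, was 6.71, 6.66 and 6.74 in EILP_WT and 8.72, 8.49 and 7.67 in ALP_WT (limma adjusted p = 0.0184). Irf8, a factor of all dendritic cells, was 10.12 ± 0.67 in EILP_WT and 10.21 ± 0.28 in ALP_WT and did not pass (limma adjusted p = 0.53). Batf3, a factor of conventional dendritic cells, was 3.12, 2.20 and 3.64 in EILP_WT and at the floor in all ALP_WT libraries (limma adjusted p = 0.0117), a call lost without ALP_WT replicate 1 or EILP_WT replicate 3 (adjusted p up to 0.0791). Il12a, a subunit gene of IL-12, was 4.28, 4.51 and 2.74 in EILP_WT and 7.60, 7.52 and 6.84 in ALP_WT (log2 difference -3.63, SE 0.59, limma adjusted p = 0.006, kept).

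Among 13 myeloid markers, Lyz2, which encodes lysozyme, passed. It was 5.67, 5.48 and 3.62 in EILP_WT and 8.22, 8.08 and 7.84 in ALP_WT (limma adjusted p = 0.0265), a call lost without any ALP_WT library or without EILP_WT replicate 3 (adjusted p up to 0.171). Mpo, the myeloperoxidase gene, was 11.70, 9.55 and 8.36 in EILP_WT and 10.11, 8.58 and 10.55 in ALP_WT, with overlapping groups (limma adjusted p = 0.906). Elane, a neutrophil elastase gene, also overlapped between the groups (limma adjusted p = 0.75). The sum of the myeloid markers, given above, overlapped as well.

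Of 40 tested replication and mitosis genes, 5 fell and 0 rose. The difference was negative in 39 of them, with a median of -0.82, against -0.01 for all tested genes. Ccnb2, a mitotic cyclin, was 6.18, 6.85 and 6.70 in EILP_WT and 7.63, 7.72 and 7.90 in ALP_WT (log2 difference -1.19, SE 0.25, limma adjusted p = 0.0221). Cdk1, its kinase, was 5.89, 6.43 and 6.33 in EILP_WT and 7.11, 7.65 and 7.90 in ALP_WT (log2 difference -1.28, limma adjusted p = 0.0442). The call of Ccnb2 was lost without any ALP_WT library or EILP_WT replicate 3 (up to 0.0724), and that of Cdk1 with any 1 of the 6 omitted (up to 0.154). Cdc6, Top2a and Mcm6 also passed, with differences of -1.11, -0.98 and -0.62. The call of Cdc6 was lost without ALP_WT replicate 1 or 3 or EILP_WT replicate 1 or 3 (up to 0.128), that of Top2a without any library but EILP_WT replicate 2 (up to 0.211), and that of Mcm6 with any 1 of the 6 omitted (up to 0.19). Mki67 was 5.93, 6.71 and 5.71 in EILP_WT and 6.67, 7.84 and 7.95 in ALP_WT, with a small overlap (limma adjusted p = 0.172). Without EILP_WT replicate 3, 0 of the 40 passed by limma, where 10 had an unadjusted p under 0.05, and without ALP_WT replicate 3 these counts were 0 and 14. Aspm, a spindle pole gene and 1 of the 12 largest falls, was 3.08, 4.65 and 1.66 in EILP_WT and 5.85, 5.25 and 6.44 in ALP_WT (limma adjusted p = 0.0441), a call lost without any of the 6 libraries but EILP_WT replicate 2 (adjusted p up to 0.218).

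Of 62 tested actin cytoskeleton genes, a list drawn up after values were seen, 17 rose, 3 fell and 42 did not pass, with a median of 0.28. With each of the 6 libraries left out in turn, 6 of the 17 rises and 2 of the 3 falls were kept, and without EILP_WT replicate 3, 7 genes were higher and 2 were lower. Tmsb4x, which encodes thymosin beta-4, the main monomer-binding peptide, was 11.34, 11.34 and 11.58 in EILP_WT and 9.65, 9.81 and 9.43 in ALP_WT, a 3.47-fold difference (log2 difference 1.79, SE 0.11, limma adjusted p = 5.11e-06). Actr3, a subunit of the Arp2/3 nucleator, was 10.35, 10.49 and 10.51 in EILP_WT and 9.53, 9.58 and 9.73 in ALP_WT (log2 difference 0.84, SE 0.10, limma adjusted p = 0.00093). Tagln2 and Cnn2, which encode actin-binding proteins of the calponin family, rose by 1.07 and 1.58 (limma adjusted p = 0.000491 and 0.00168). Their relative Cnn3 fell by 3.20 (SE 0.34, limma adjusted p = 0.000387), with 6.43, 7.14 and 6.11 in EILP_WT and 9.88, 9.54 and 9.29 in ALP_WT. Those 5 calls were kept. Actb rose by 0.63 (limma adjusted p = 0.017, or up to 0.105 without ALP_WT replicate 1 or EILP_WT replicate 3). Grouped likewise, 2 of 13 phosphoinositide 3-kinase subunit genes were higher and Pik3cg, the gamma subunit gene, was lower (limma adjusted p = 0.0127, or 0.0924 without EILP_WT replicate 3). Pik3cd, the delta catalytic subunit of lymphocytes, was 8.83, 8.89 and 8.76 in EILP_WT and 7.88, 7.85 and 7.87 in ALP_WT (limma adjusted p = 0.00452, kept).

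The rest of the largest falls were of unrelated genes. Tspan13, a tetraspanin, was even in both groups, at 6.62, 6.54 and 6.69 in EILP_WT and 9.30, 9.37 and 9.71 in ALP_WT (log2 difference -2.78, SE 0.27, limma adjusted p = 0.000189, kept). Azin2, which encodes an antizyme inhibitor in polyamine metabolism, was 1.26, 0.29 and 0.92 in EILP_WT and 4.84, 5.48 and 5.08 in ALP_WT (limma adjusted p = 0.0193). Tsc22d1, a leucine zipper gene, was 5.27 ± 1.07 in EILP_WT and 8.25 ± 0.61 in ALP_WT (limma adjusted p = 0.0253). The call of Azin2 was lost without any ALP_WT library or EILP_WT replicate 3 (adjusted p up to 0.0806), and that of Tsc22d1 without ALP_WT replicate 1 or 2 or EILP_WT replicate 1 or 2 (adjusted p up to 0.135). Tmem119 was 3.95 ± 0.57 in EILP_WT and 7.17 ± 0.38 in ALP_WT, and Dirc2 was 4.30 ± 0.43 in EILP_WT and 7.17 ± 0.63 in ALP_WT. Both lost their call with any 1 of the 6 libraries omitted, with adjusted p up to 0.136 and 0.167. The naming rule also picked genes at the floor in all EILP_WT libraries by their high ALP_WT levels. Beside Rag2, Siglech and Hnf4a these were Paqr5, Emp1, Nav1, Ddx4, Spice1, Nlrp1a and Plekha7. Their ALP_WT means lay between 4.84 for Plekha7 and 6.53 for Paqr5, with limma adjusted p between 0.00786 for Emp1 and 0.0418 for Spice1. The calls of Paqr5, Emp1 and Ddx4 were lost without ALP_WT replicate 1 or EILP_WT replicate 3 (adjusted p up to 0.122). That of Nav1 was lost without ALP_WT replicate 2 or 3 or EILP_WT replicate 2 (up to 0.0781), that of Nlrp1a without any ALP_WT library (up to 0.0658), and those of Spice1 and Plekha7 without any of the 6 (up to 0.196). Epha2, an Eph receptor kinase, was also at the floor throughout EILP_WT and 4.44, 5.33 and 2.81 in ALP_WT (limma adjusted p = 0.00172, kept). It was chosen after its values were seen.

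Adhesion genes passed in 7 of 27 tested members, 5 of them higher, which include Itgb7 and Itga4 of the sort gate. The lower ones were Cd34 and Egfl7. Beside the gate integrins, Itgb2, the beta chain of leukocyte integrins, was 8.17 ± 0.48 in EILP_WT and 6.57 ± 0.57 in ALP_WT (limma adjusted p = 0.0221). Selplg, the ligand of P-selectin, was 10.09, 10.24 and 10.13 in EILP_WT and 9.37, 9.53 and 9.21 in ALP_WT (limma adjusted p = 0.0156). Itga2b, the platelet integrin chain, was 6.37, 5.49 and 6.06 in EILP_WT and -4.60, -4.83 and 2.55 in ALP_WT (limma adjusted p = 0.0114). The call of Itgb2 was lost without ALP_WT replicate 1 or 3 or EILP_WT replicate 2 or 3 (adjusted p up to 0.146), that of Selplg without ALP_WT replicate 1 or 3 or EILP_WT replicate 3 (up to 0.0977), and that of Itga2b without ALP_WT replicate 1 (0.0725). Of the 14 erythroid and megakaryocyte markers, Itga2b and Gp1bb passed, both higher, against 1.71% of all tested genes that were higher. The call of Gp1bb was lost without ALP_WT replicate 1 or EILP_WT replicate 3 (limma adjusted p up to 0.114). Without ALP_WT replicate 1, 0 of the 14 passed by limma. The part of such cells was not tested. In other lists the share that passed was near the 3.21% of all tested genes: Wnt and TCF partners had 1 of 27, glycolysis 1 of 21, interferon response 1 of 24 and TNF and lymphotoxin family genes 1 of 21. Interferon response genes still leaned lower, with 3 of 24 positive and a median of -1.16. That median becomes -1.09 without 1 gene at the floor throughout EILP_WT. Their 1 call, Oasl2, was lower and was lost without any library but EILP_WT replicate 1 (limma adjusted p up to 0.155). Of 83 ribosomal protein genes and 15 mitochondrially encoded genes, 0 passed by limma, with medians of -0.28 and 0.06, and 18 and 0 of them had an unadjusted p under 0.05.

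Levels in the EILP fractions that the series also sorted, sEILP_WT (Zbtb16low Flt3high) and cEILP_WT (Zbtb16high Flt3low), come from a strain with Tcf7GFP and Zbtb16GFP reporters and are given with no test. Zbtb16, a gene of their gate, was 6.96, 6.80 and 6.71 in cEILP_WT and 4.28 and 4.60 in sEILP_WT, against 6.30 to 7.24 in EILP_WT and -4.83 to -4.53 in ALP_WT. Tox2 was 8.32, 8.21 and 8.56 in cEILP_WT, and -4.72 (the floor) and 4.75 in sEILP_WT. Fgf15 was 6.69, 6.76 and 7.15 in cEILP_WT and at the floor in both sEILP_WT libraries, as it was in all 3 ALP_WT libraries. Cpa3 lay between 10.06 and 10.34 in cEILP_WT and was 9.89 and 9.99 in sEILP_WT, above ALP_WT in all 5 libraries. Dntt was 8.12, 8.24 and 8.84 in cEILP_WT and 9.05 and 8.26 in sEILP_WT, above every EILP_WT library and below every ALP_WT library. Rag2 was -4.77, 1.96 and 1.35 in cEILP_WT and 2.99 and 4.04 in sEILP_WT, below the 6.49 to 6.98 of ALP_WT.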

How the data were processed

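RNA was sequenced from sorted bone marrow progenitors, with SMARTer ultra low input and Nextera XT library kits per the labels. Per the submitters' processing notes, the tools were RSEM 1.2.23, STAR 2.5.2b, bcl2fastq 2.17 and limma and the build was mm10, and the annotation is not given in the sources used here. The authors' deposited table holds log2 values, which as read from the values are on the scale of counts per 1e6 and share 1 distribution over the 15 libraries, as quantile normalization gives. That leaves the depth of each library unknown and sets a shared ceiling. A further 24 columns with no name or values were not used.

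A gene was tested if its log2 value reached 0 in 2 or more libraries. limma 3.58.1 in R 4.3.3 was fitted to all 15 libraries with group and batch as terms and an intensity trend, with Benjamini-Hochberg adjustment over all 12572 genes, and was tested on simulated data. Genes named by rule were changed genes with a log2 difference of at least 1 and no overlap. The mean of their higher group lay above 4.75, the median over tested genes. Predicted genes and immunoglobulin and T cell receptor segments were left out. From the rest came the 12 largest each way with no library at its lowest value. Up to 10 each way with the lower group wholly there and the 8 of smallest adjusted p were added. Members of the lists were named as well. The members and lists were chosen with earlier results of these data known, and any further gene after its values were seen. Same-numbered libraries did not deviate together (r over genes of 0.028, 0.014 and -0.054), so the numbers were not taken as pairs. Not every gene that passed is reported here. Alternatives are in the closing section.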

Additional observations from a re-analysis of the deposited data

How the results depend on the processing

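All 404 calls had the same direction under every alternative in which they were tested. Each alternative reuses libraries that gave the calls, so this was close to fixed in advance. The count of changed genes was 60 (31 higher, 29 lower) in a fit of the EILP_WT and ALP_WT libraries alone, of which 56 were among the 404, and 2067 genes there had an unadjusted p under 0.05. It was 246 (142 higher, 104 lower) with no intensity trend and 224 (128 higher, 96 lower) with array weights. Within batch 1 alone it was 223 (169 higher, 54 lower), and within batch 2 alone 0 by limma (0 higher, 0 lower), where 2773 genes had an unadjusted p under 0.05. In these single-batch fits a group with 1 library was assumed to vary like the others. Leaving out 1 library in turn gave 177 to 380 changed genes, 100 to 208 higher and 77 to 172 lower. The lowest total came without EILP_WT replicate 3, and the calls were 66.5% higher without ALP_WT replicate 2 and 65.6% higher without ALP_WT replicate 3, against 53.2%. The batch term, the filter, values under 0 set to 0, repeated quantile normalization and cyclic loess gave between 386 and 468. The causes of these shifts were not tested.

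With the replicate number as a block, 160 genes changed (97 higher, 63 lower), 158 of them among the 404. The libraries share only a number, so this fit says nothing about the size of an effect.

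Unknown depth leaves levels near a library's lowest value without a counting error, and 3545 of the 12572 genes had at least 1 of the 6 libraries there. The median SE was 0.619 over all tested genes and 0.425 over the 9027 genes with none there. Groups of 3 are too small to test for a library far from the others.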
